A study of Mus musculus with 56 samples.

Results

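Single cells (SCs) of cultured mouse pituitary were split by the summed level of 3 immediate early genes (IEGs), *Fos*, *Egr1* and *Fosb*, so both sides were chosen by these measured levels. The split compared 11 IEG-high SCs with 6 IEG-low SCs, out of 25 deeply sequenced SCs and 56 SCs in all. An SC counted as deep when its gene counts, without the added ERCC spike-in RNA, came to 1000000 or more. It was called high when the 3 genes together reached 100 CPM (an SC's counts scaled to the same total of gene counts, 1000000), and low when they stayed under 20 CPM. The 8 deep SCs between those limits are called middle below. All 56 SCs were the same material from C57BL/6 female mice of 10 to 12 weeks that cycled at random. No treatment of these SCs is described in the sources used here. The paper names treatment with gonadotropin-releasing hormone for pituitary cultures assayed by single-cell PCR. Pituitaries were dispersed with enzymes, the cells were grown for 4 days and then trypsinized into RNA-Best, a reagent that keeps RNA as it was before capture. SCs were caught on a C1 microfluidic chip, and poly(A) cDNA was made with the SMART-Seq v4 kit and sequenced as Nextera libraries. Tissue of 5 mice was pooled into a sample and no label gives the animal or culture of an SC, so each side is 1 sample of several cells. No test between the sides was therefore possible, and each SD below is the spread between SCs.

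IEGs are transcribed within minutes of a signal without the need for new protein, and their transcripts decay quickly. FOS and FOSB pair with JUN proteins in the dimeric factor AP-1, and EGR1 is a zinc finger factor that acts on *Lhb* in gonadotropes, so all 3 link receptor signals at the membrane to slower gene programmes. In the pituitary they respond to releasing hormones from the hypothalamus, and enzymatic dispersion of a tissue can raise them too.

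Several SCs stood apart from the rest and bear on the values below. Gene counts ran from 1314330 to 10664342 on the high side and from 1070910 to 9479209 on the low side. Spike-in RNA took 0.348% to 11.7% of counts on the high side and 0.334% to 17.1% on the low side, with the largest shares in wells A1 (low, 17.1%), H3 (high, 11.7%), H7 (high, 7.54%) and C2 (low, 6.26%). Well F11 on the low side held 146749 CPM of red blood cell transcripts (all 5 listed markers at 100 CPM or more), against 0 to 1543 CPM on the high side. Well H4 on the high side held 8855 CPM of endothelial transcripts, from 1013 CPM of *Emcn* to 4885 CPM of *Plvap*, with *Kdr* and *Cdh5* between them and *Pecam1* at only 8.93 CPM. Low SCs had at most 8.77 CPM of the endothelial list. Well H7 carried 4 of 10 folliculostellate markers at 100 CPM or more and *Emcn* at 2040 CPM, while *Sox2*, *S100b* and *Aldh1a1* were at 0 in all 17 SCs. Well H9 carried 4 of the 5 red blood cell markers at 100 CPM or more. Macrophage markers other than *Cd68* stayed at or under 13.2 CPM in every SC of both sides, and summed collagen and pericyte markers reached 133 CPM on the high side and 512 CPM on the low side. The part of these transcripts in the differences below was not tested, beyond leaving the wells out.

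The values of *Fos*, *Egr1* and *Fosb* chose the sides and are given as a description. *Fos* ran from 1.52 to 1554 CPM over the 11 high SCs (median 383) and from 0 to 4.49 CPM over the 6 low SCs (median 1.01). *Egr1* ran from 0 to 998 CPM on the high side (median 23.6) and from 0 to 8.68 CPM on the low side (median 0.475). *Fosb* ran from 0 to 44.9 CPM on the high side (median 0.389) and from 0 to 0.347 CPM on the low side. The low SC nearest its limit had a sum of 10.0 CPM (well C2), and the high SC nearest its limit had 154 CPM (well E8). The middle SCs ran from 23.4 CPM (well G10) to 87.6 CPM (well G1).

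**Figure D1:**
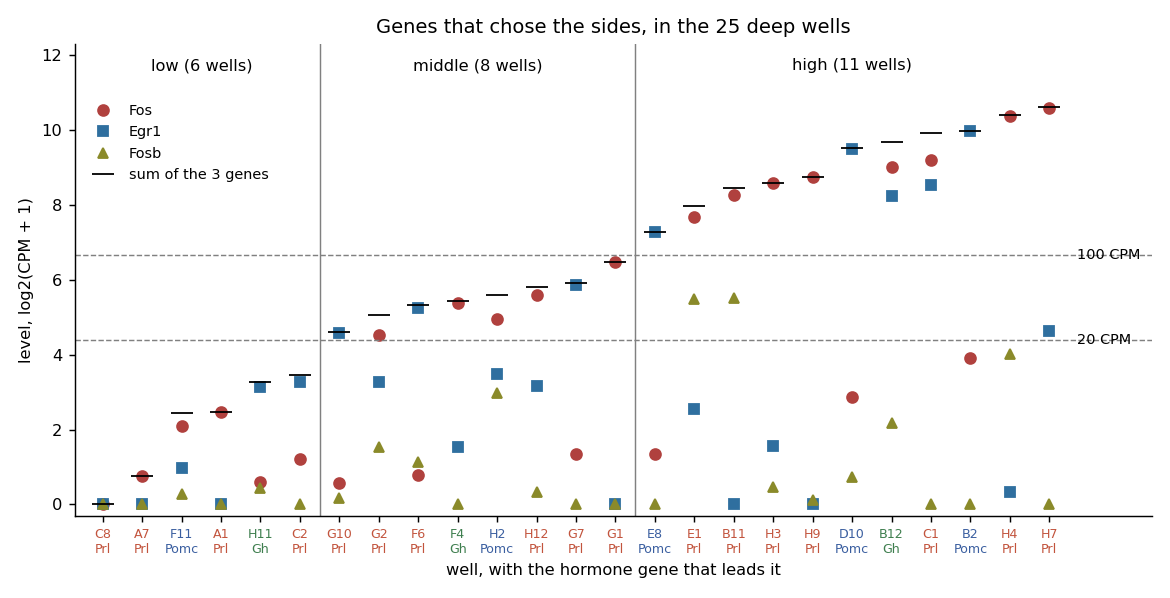
Levels of *Fos* (circles), *Egr1* (squares), *Fosb* (triangles) and their sum (dashes) as log2(CPM + 1) in each of the 25 deep SCs, ordered within the low, middle and high groups, with the hormone gene that leads each SC below its well. The sums chose the groups. Wells E8, D10 and B2 reached the high side through *Egr1* and are the 3 high SCs led by *Pomc*.

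The high side was made of SCs of different kinds. In 8 of the 11 high SCs *Fos* held the largest share of the sum, with 204 to 1554 CPM of *Fos* (median 471) and 0 to 373 CPM of *Egr1* (median 3.40). In the other 3, wells E8, D10 and B2, *Egr1* held over 98% of the sum, with 153, 721 and 998 CPM, while *Fos* was at 1.52, 6.27 and 14.2 CPM. No high SC changed its leading gene when levels were taken per kilobase of exon. Only wells B12 and C1 had over 100 CPM of both genes, with 513 and 303 CPM in B12 and 588 and 373 CPM in C1. *Fosb* passed 10 CPM in E1 (43.6), B11 (44.9) and H4 (15.1), all of them led by *Fos*, and was at 0.660 CPM or less in the *Egr1*-led SCs.

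The promoters of *Fos*, which led the sum in 8 high SCs, and of its relative *Fosb*, which put no SC on the high side by itself, are shown as 2 of the 3 genes that made the split. That of *Egr1* was not analysed here. The 250 bases before each RefSeq start site (GRCm38.p6) are printed 5′ to 3′ on the strand of the gene, for *Fos* chr12:85473640-85473889 (plus strand) and for *Fosb* chr7:19310046-19310295 (minus strand). Capitals mark TGACG, the core letters of a cAMP response element (searched on both strands), and TATAAA, the TATA box (searched on the strand of the gene).
Fos: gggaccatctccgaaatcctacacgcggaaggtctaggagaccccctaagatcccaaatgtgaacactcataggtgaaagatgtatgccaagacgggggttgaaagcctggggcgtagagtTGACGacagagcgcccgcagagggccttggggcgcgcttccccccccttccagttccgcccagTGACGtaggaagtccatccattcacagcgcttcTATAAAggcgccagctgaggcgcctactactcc
Fosb: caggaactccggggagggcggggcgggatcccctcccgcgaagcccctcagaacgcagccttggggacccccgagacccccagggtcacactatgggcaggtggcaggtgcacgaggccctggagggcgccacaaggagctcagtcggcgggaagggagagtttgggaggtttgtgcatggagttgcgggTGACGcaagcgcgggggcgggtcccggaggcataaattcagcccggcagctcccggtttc
The *Fos* window held TGACG 129 and 66 bases before the start and TATAAA 33 bases before it. The *Fosb* window held TGACG 60 bases before the start and no TATAAA. Motif shares were taken over the same stretch before each RefSeq start. TGACG was found in 17.8% of all 32851 such windows, TATAAA in 7.59% and the CArG box, the binding motif of serum response factor, in 1.47%. For the IEGs and listed early-response genes, windows on the chromosome of *Egr1* were left out, while the shares over all genes kept them. Windows were used for 56 of the 71 genes made up by the 3 IEGs and 68 listed early-response genes. Of these, 34 genes (60.7%) had TGACG in at least 1 window, against 19.8% of all 27025 genes with a window. The 68 genes come from 3 lists, AP-1 and EGR factors, early-response feedback genes, and cAMP and CREB targets, so the choice of genes in part fixes that share, and a gene with several windows has more chances of a match. Without the cAMP and CREB list, 19 of the 37 genes with a single window (51.4%) had TGACG, against 17.5% of all 22862 such genes. The full element TGACGTCA, which contains TGACG, was found for 6 of the 56 genes (10.7%, against 1.77% of all genes), and the AP-1 motif TGANTCA for 3 (5.36%, against 7.82%). The CArG box was found for 4 (7.14%, against 1.62%). These matches describe letters in a window, not bound sites.

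Other early-response genes were on balance higher in the high SCs, but by unequal amounts and rarely in all of them. Differences are of mean log2(CPM + 1), high minus low, over the 7725 genes with a mean of 10 CPM or more over the 17 SCs, and 2 on this scale is 4-fold. Across all these genes the median difference was 0.43. A total of 629 genes (8.14%) were 4-fold or more higher on the high side and 257 (3.33%) were 4-fold or more lower. With each difference taken relative to the median of 0.43 the counts were 295 higher and 484 lower. With hormone genes left out of the CPM totals they were 616 and 410 of 8663 genes past the filter. The balance of the directions therefore depends on the scaling. The number of lower genes rested on wells A1 and C2. It was 472 (6.04%) without A1, 459 (5.83%) without C2 and 934 (11.7% of 7955 genes) without both. Of the 68 listed early-response genes 48 passed the level filter, 7 of them (14.6%) were 4-fold or more higher and none was 4-fold or more lower. Their median difference was 1.17, and 44 of the 48 (91.7%) were above 0, against 62.7% of all genes that passed. The median was 0.12 by the difference of medians (all genes 0), 0.57 with 1 limit at 50 CPM (all genes 0.01), 0.49 with *Fos* alone as the rule (all genes -0.18) and 0.70 without A1 and C2 (all genes -0.08). The filter lets through a gene that is high on the larger side alone, so the share is a description. Over all 68 genes, filtered or not, 55 (80.9%) were above 0 with a median of 0.78, against 68.6% and 0.07 for the 23288 genes with any count, although 4 of the 68 had no count in the 17 SCs. Of the 20 early-response genes under the filter 11 (55.0%) were above 0, against 71.5% of all genes under it, so there the early-response genes were not ahead. By plate position, the early-response median was 2.35 beside 0.30 for all genes in columns 4 to 6 and 10 to 12 (4 high and 2 low SCs), but 0.65 beside 0.66 in columns 1 to 3 and 7 to 9 (7 high and 4 low SCs), so the difference from other genes was not seen in the larger set. Without well C8, a low SC, 15 early-response genes in place of 7 were 4-fold or more higher (31.25%). All genes 4-fold or more higher rose there too, from 629 (8.14%) to 897 (11.7%). Without wells H3, H7 and A1 there were 16 early-response genes (33.3%), beside 883 of all genes (11.3%).

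*Myc* and *Klf10*, both transcription factors of the early response, had the largest differences of the list. *Myc* was at 0 to 203 CPM in the high SCs (median 46.4) and at 0 to 4.01 CPM in the low SCs (median 0.192), a difference of 3.84 (4.44 ± 2.57 against 0.61 ± 0.89, SD). In 8 of the 11 high SCs *Myc* was above every low SC, and the 3 that were not were E8 (0 CPM), E1 (0.882) and H7 (3.73). The middle SCs had 0 to 354 CPM of *Myc* with a median of 32.0, close to the high side, and 6 of the 8 were above every low SC. The difference was past 4-fold under 17 of 18 other ways of processing and stayed between 3.52 and 4.28 when any 1 SC was left out. Here and in the tallies below, the ways that changed only the level filter could not move the value of a gene. These were no filter, a filter at 50 CPM and sides weighted equally in the filter. *Klf10*, a zinc finger factor induced by TGF-beta, was at 0 to 996 CPM in the high SCs (median 201) and at 0 in the median low SC, a difference of 3.41 (5.15 ± 4.10 against 1.74 ± 4.08). It passed 200 CPM in 6 high SCs, among them all 3 that *Egr1* led, and stayed at or under 4.41 CPM in the other 5. On the low side it was at 0.316 CPM or less in 5 SCs and at 1065 CPM in well H11, so the sides overlapped, and without H11 the difference was 5.07. *Myc* lies at chr15:61985391-61990374 and *Klf10* at chr15:38291463-38300706 (GRCm38, GENCODE M21).

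The other 5 early-response genes past 4-fold were *Ccn2*, *Junb*, *Ier2*, *Cebpb* and *Bdnf*. *Junb* (chr8:84974484-84978718), an AP-1 partner of FOS, was at 0.188 to 879 CPM in the high SCs (median 57.1) and at 0 to 31.3 CPM in the low SCs (median 1.51), a difference of 2.75. It was above every low SC in 6 high SCs, and highest in B12 (879), H4 (617) and C1 (262). *Ier2* (chr8:84661331-84662852), a small nuclear early-response protein, was at 0 to 1473 CPM in the high SCs (median 50.7) and at 0.274 to 13.1 CPM in the low SCs, a difference of 2.68, and was above every low SC in 7 high SCs. *Cebpb* (chr2:167688915-167690418), a leucine zipper factor, was at 0.248 to 99.8 CPM against 0 to 6.68 CPM (difference 2.24) and was above the low side in 5 high SCs. *Bdnf* (chr2:109674700-109727007), a secreted neurotrophin under cAMP control in neurons, was at 0 to 491 CPM against 0 to 6.68 CPM (difference 2.11) and was above the low side in 4 high SCs, with B11 (491) and C1 (429) at the top. *Ccn2* (chr10:24595442-24598683), a matricellular protein induced by serum, was at 0 in all 6 low SCs. It was at 1988 CPM in H3, 1581 in H9 and 678 in H4 and at 0.829 CPM or less in the other 8 high SCs, so its difference of 2.92 rests on 3 SCs and on the added 1 CPM. Counting by strand is not stated in the sources used here, and *Junb*, *Ccn2* and *Cebpb* overlap the annotated genes *Prdx2*, *Gm15270* and *Tmem189*. Among 18 other ways of processing, 4-fold was passed 14 times for *Junb* and *Ccn2*, 13 times for *Ier2* and 9 times for *Cebpb* and *Bdnf*.

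Several genes that are textbook companions of *Fos* did not separate the sides. *Dusp1*, the phosphatase that switches off MAP kinases, had a difference of 0.01 (3.84 ± 4.48 against 3.83 ± 3.03). It reached 1471 CPM in H4, 936 in B12, 625 in C1 and 202 in E1 and was at 6.22 CPM or less in the other 7 high SCs, while low wells F11 (184) and C8 (156) were above those 7. *Jun*, a partner of FOS in AP-1, was at 0 to 795 CPM against 0.274 to 183 CPM (difference 0.85) and passed 100 CPM in B12 and H4 alone on the high side and in H11 on the low side. *Atf3*, a stress-induced repressor, reached 3975 CPM in B12 and 576 in D10 but was near the same median on both sides (3.11 and 6.29 CPM), with 151 CPM in low well C8. *Nr4a1*, an orphan receptor that CRH induces in corticotropes, was at 482 CPM in E8, 275 in B11 and 181 in B12, at or under 0.469 CPM in the other 8 high SCs and at most 11.2 CPM on the low side. The genes below 0 were *Cebpd* (-1.49), *Pde10a* (-1.12), *Fosl2* (-0.91) and *Pcsk1* (-0.31). *Egr2*, *Egr3*, *Egr4*, *Nr4a2*, *Nr4a3*, *Dusp2*, *Ptgs2* and *Per1* were among the 20 listed genes under the level filter.

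**Figure D2:**
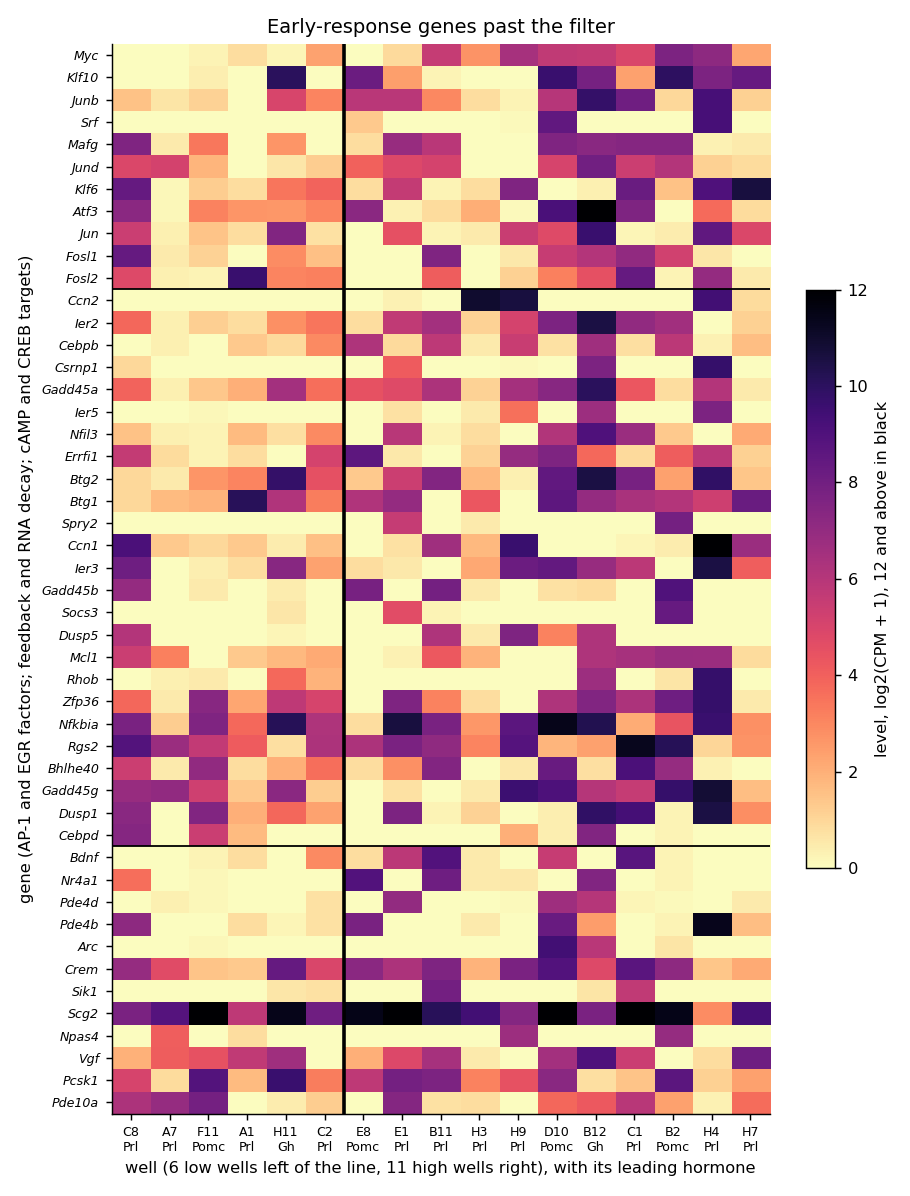
Level as log2(CPM + 1) of the 48 early-response genes that passed the filter (rows, in 3 lists) in the 6 low and 11 high SCs (columns, ordered by the summed IEG level), with darker cells for higher levels. Wells B12 and H4 are dark over many rows and H3 over few, and low well C8 is dark for *Klf6*, *Fosl1*, *Ccn1* and others.

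The number of early-response genes that were up in the same SC differed widely within the high side. At a limit of 100 CPM, high SCs had 2 to 22 of the 68 listed genes (median 12) and low SCs 1 to 15 (median 5.5), while middle SCs had 1 to 10 (median 6). B12 (22 genes), H4 (20), D10 (18), B2 (15) and C1 (15) had the most of these genes, and H3 (2 genes, 383 CPM of *Fos*) and H7 (6 genes, 1554 CPM of *Fos*) had *Fos* with few others. Hormone genes took 1.29%, 1.88% and 5.39% of gene counts in B12, H4 and D10, but 30.7% in B2 and 43.2% in C1. Their median share on the high side was 30.7%. The low exception was C8, with 15 genes at 100 CPM or more and no read of *Fos*, *Egr1* or *Fosb* among 1070910 counts. Its early-response genes past 100 CPM included *Ccn1* (559), *Klf6* (334), *Fosl1* (325) and *Atf3* (151). The number moved with how many genes of any kind an SC had at 100 CPM, which was 806 to 2503 on the high side and 229 to 2098 on the low side. As a share of those genes, early-response genes made up 0.248% to 1.30% in the high SCs (median 0.840%) and 0.356% to 0.907% in the low SCs (median 0.404%). By that share 10 of the 11 high SCs lay above 5 of the 6 low SCs, and C8 lay above all but 3 high SCs. The sides overlapped on both measures.

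**Figure D3:**
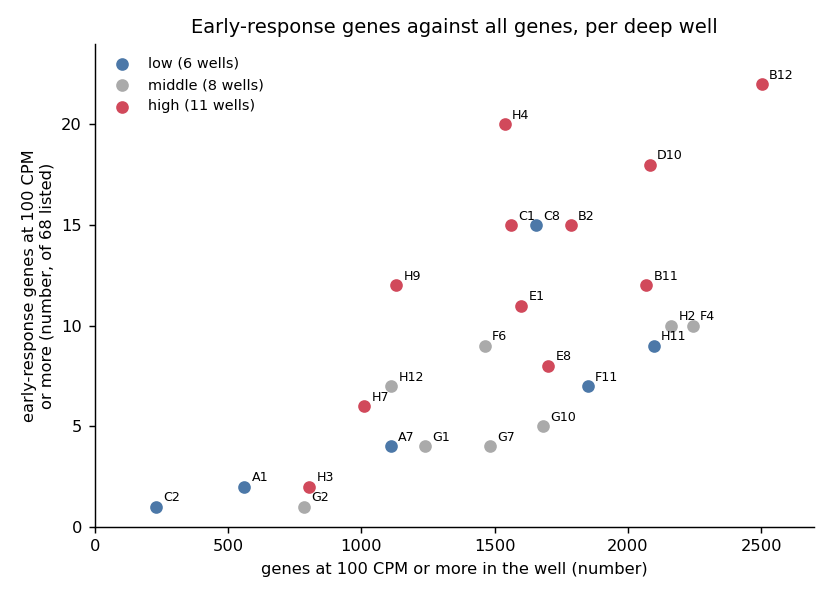
Number of the 68 listed early-response genes at 100 CPM or more (vertical) against the number of all genes at 100 CPM or more (horizontal) in each of the 25 deep SCs, coloured by side. Most high SCs sit above middle and low SCs with a like number of genes, with H3, H7 and E8 inside the cloud and low well C8 among the high SCs.

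The *Egr1*-led and *Fos*-led SCs of the high side also differed in which companions they carried, as values of 3 and 8 SCs. *Klf10* was at 290, 806 and 996 CPM in E8, D10 and B2 and at 0 to 315 CPM (median 4.25) in the *Fos*-led SCs. *Dusp1* was at 0 to 0.330 CPM in the *Egr1*-led and at 0 to 1471 CPM (median 104) in the *Fos*-led SCs. The *Fos*-led SCs were split, with *Dusp1* high in H4, B12, C1 and E1 and at the low levels given above in B11, H3, H7 and H9. *Junb* and *Ier2* spanned both kinds, with 0.944 to 62.4 CPM and 0.761 to 200 CPM in the *Egr1*-led SCs.

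*Prl* was the most frequent leading hormone on both sides. An SC was assigned to the lineage hormone gene with the most counts, among *Prl*, *Gh*, *Pomc*, *Tshb* and *Lhb* with *Fshb*. *Prl*, the product of lactotropes, led 7 of 11 high SCs (63.6%, exact Clopper-Pearson 95% interval 30.8% to 89.1%) and 4 of 6 low SCs (66.7%, 22.3% to 95.7%), and 6 of 8 middle SCs. *Pomc*, the ACTH precursor of corticotropes, led 3 high SCs (27.3%, 6.02% to 61.0%) and 1 low SC (16.7%, 0.421% to 64.1%). *Gh*, the product of somatotropes, led 1 SC on each side, and no SC was led by *Tshb* or the gonadotropin genes. The intervals cover counting error alone, are wide and overlap throughout. With *Fos* alone as the rule, at the same limits, *Prl* led 87.5% of high SCs and 58.3% of low SCs. None of the 17 compared SCs changed its leading hormone when counts were divided by exon length.

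Hormone levels differed little beside their spread. *Prl* was at 1216 to 573124 CPM on the high side and at 2069 to 776624 CPM on the low side, with a difference of -0.56 (15.33 ± 3.43 against 15.89 ± 3.89). *Gh* was at 162 to 11710 CPM against 852 to 28718 CPM, a difference of -1.01, and *Pomc* at 27.0 to 356901 CPM against 21.4 to 180795 CPM, a difference of 1.25 with SDs of 4.69 and 4.50. *Cga*, the shared subunit of the glycoprotein hormones, had mean log2 levels of 4.44 on the high side and 5.44 on the low side, and *Lhb* had a difference of -0.28. Each of these differences is under the SD of either side, and the sign of each turned under at least 2 of 17 other ways of processing. Among the *Prl*-led SCs alone (7 high, 4 low) the difference was -0.75 for *Prl*, -1.26 for *Gh* and -0.23 for *Pomc*.

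Which of the 3 IEGs led the sum also went with the leading hormone among the high SCs, but not among the other deep SCs. All 3 high SCs led by *Egr1* were led by *Pomc*, and the 8 led by *Fos* were led by *Prl* in 7 cases and by *Gh* in 1. *Pomc* was at 356901 CPM in E8, 298862 in B2 and 51676 in D10. The corticotrope genes were uneven in these wells: *Tbx19*, the lineage factor that drives *Pomc*, was at 14.5, 1289 and 0 CPM, and *Crhr1*, the CRH receptor, at 0, 313 and 145 CPM in the same order. *Crhr1* was at 0 in all 6 low SCs, at 47.1 CPM in H3 and at 3.19 CPM or less in the other *Fos*-led SCs. The *Pomc*-led SC on the low side, F11, had 777 CPM of *Tbx19*, 3.27 CPM of *Fos* and 0.949 CPM of *Egr1*, and it is the SC with red blood cell transcripts. Outside the high side, the SCs in which *Egr1* led the sum were not led by *Pomc*. The middle wells G10, F6 and G7, with 22.8, 37.0 and 57.3 CPM of *Egr1* and 1.56 CPM of *Fos* or less, were led by *Prl*, and of the low wells with more *Egr1* than *Fos*, C2 was led by *Prl* and H11 by *Gh*. The *Pomc*-led middle SC, H2, had 30.0 CPM of *Fos* and 10.1 CPM of *Egr1*. E1, a *Prl*-led SC with 60788 CPM of *Pomc*, had 204 CPM of *Fos* and 4.85 CPM of *Egr1*. This pattern was seen in the SCs that the 3 IEGs had chosen and is given without a test.

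Pituitary genes outside the hormones included some with larger differences. *Gal*, the neuropeptide galanin made by lactotropes, was at 3.04 to 1302 CPM in the high SCs (median 164) and at 5.35 to 14191 CPM in the low SCs (median 4634), a difference of -3.57. The low wells C8, F11, A1 and H11 each had more *Gal* than any high SC, and A7 (5.35) and C2 (68.1) did not. The middle SCs had 69.5 to 3008 CPM with a median of 1179.7, between the sides. Among *Prl*-led SCs alone the *Gal* difference was -1.64, and it stayed below 0 in all 18 other ways of processing. *Pou1f1*, the lineage factor of lactotropes, somatotropes and thyrotropes, was at 0 to 393 CPM (median 1.74) against 1.69 to 695 CPM (median 66.4), a difference of -2.23 that was -1.03 among *Prl*-led SCs. *Esr1*, the estrogen receptor alpha gene, was at 0 in the median high SC and passed 50 CPM in B11 (105) and E8 (52.5) alone, and it was at 0.158 to 177 CPM on the low side (difference -2.20). *Nnat*, an imprinted membrane protein of the endoplasmic reticulum, had a difference of -2.97 that was -0.80 among *Prl*-led SCs. Of the 13 granule and processing genes, which all passed the filter, none was 4-fold or more higher and 2, *Gal* and *Nnat*, were 4-fold or more lower, against 8.14% and 3.33% of all genes, with a list median of -0.37 against 0.43.

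**Figure D4:**
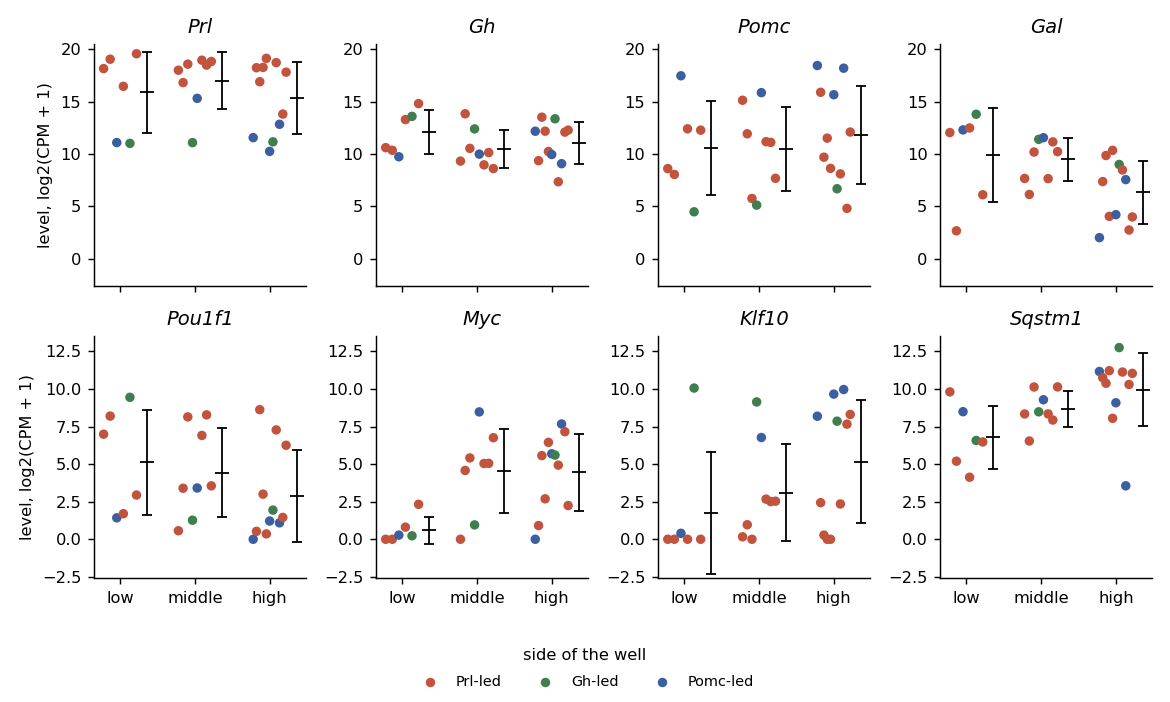
Level as log2(CPM + 1) of 8 genes in the 6 low, 8 middle and 11 high SCs, 1 point per SC coloured by its leading hormone, with the mean and SD beside each group. *Prl*, *Gh* and *Pomc* cover overlapping ranges in the groups, and *Gal* and *Pou1f1* lie lower in many high SCs. *Myc* is at 4.01 CPM or less in every low SC and above that in 8 high SCs.

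Stress genes were mixed. Of 19 heat shock and dissociation genes, all of which passed the filter, 3 (15.8%) were 4-fold or more higher and none lower, against 8.14% and 3.33% of all genes, with a median of 0.95 against 0.43. *Sqstm1*, the autophagy receptor p62, was at 10.8 to 6884 CPM in the high SCs (median 1718) and at 16.5 to 893 CPM in the low SCs (median 91.0), a difference of 3.17. It was above every low SC in 8 high SCs, and the difference stayed past 4-fold in all 18 other ways of processing. *Hspa1b*, an inducible HSP70 gene, had a difference of 2.36 with 539 CPM in E1, 446 in H9, 416 in H7 and 171 in H3, and it shares reads with its near-identical copy *Hspa1a*, so its own level is uncertain. *Hspa8*, *Dnajb1*, *Hspb1* and *Bag3* differed by 0.20 or less.

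The unfolded protein and integrated stress list had genes past 4-fold in both directions, with 17 of 18 past the filter, 3 higher (17.6%, against 8.14% of all genes), 1 lower (3.33% of all genes) and a median of 0.16, below the 0.43 of all genes. *Trib3*, a pseudokinase downstream of ATF4, was at 0.566 to 834 CPM in the high SCs (median 184) and at 0.274 to 11.4 CPM in the low SCs (median 1.35), a difference of 4.17 that was past 4-fold in all 18 other ways of processing. *Chac1*, which breaks down glutathione, had 2.18 and *Ppp1r15a*, which restores translation after stress, 2.01. *Atf4* itself was at 2.97 to 1560.1 CPM against 92.9 to 3960.3 CPM (difference -1.80), and *Dnajb9*, a chaperone of the endoplasmic reticulum, had -2.11. The middle SCs had 5.16 to 160 CPM of *Trib3*. *Cdkn1a*, the p21 cell cycle inhibitor, was at 2.49 to 985 CPM (median 405) against 1.91 to 358 CPM (median 67.0), a difference of 2.70, and was the 1 of 5 measured glucocorticoid-response genes past 4-fold (20.0%, against 8.14% of all genes). Of 11 measured serum-response and cytoskeletal genes, 2 (18.2%, against 8.14% of all genes) were 4-fold or more higher, *S100a6* (2.42, carried by H3 with 6243 CPM and H7 with 9047 CPM) and *Actg1* (2.31). Of 9 cell cycle genes 3 passed the filter, *Pcna* (3.57), *Cdkn1a* (2.70) and *Mcm2* (-1.74). Of these, 2 (66.7%, against 8.14% of all genes) were 4-fold or more higher. The 8 house-keeping genes had a median of -0.20 and the 10 nuclear and mitochondrial RNAs of -0.21, and none of either list was past 4-fold.

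**Figure D5:**
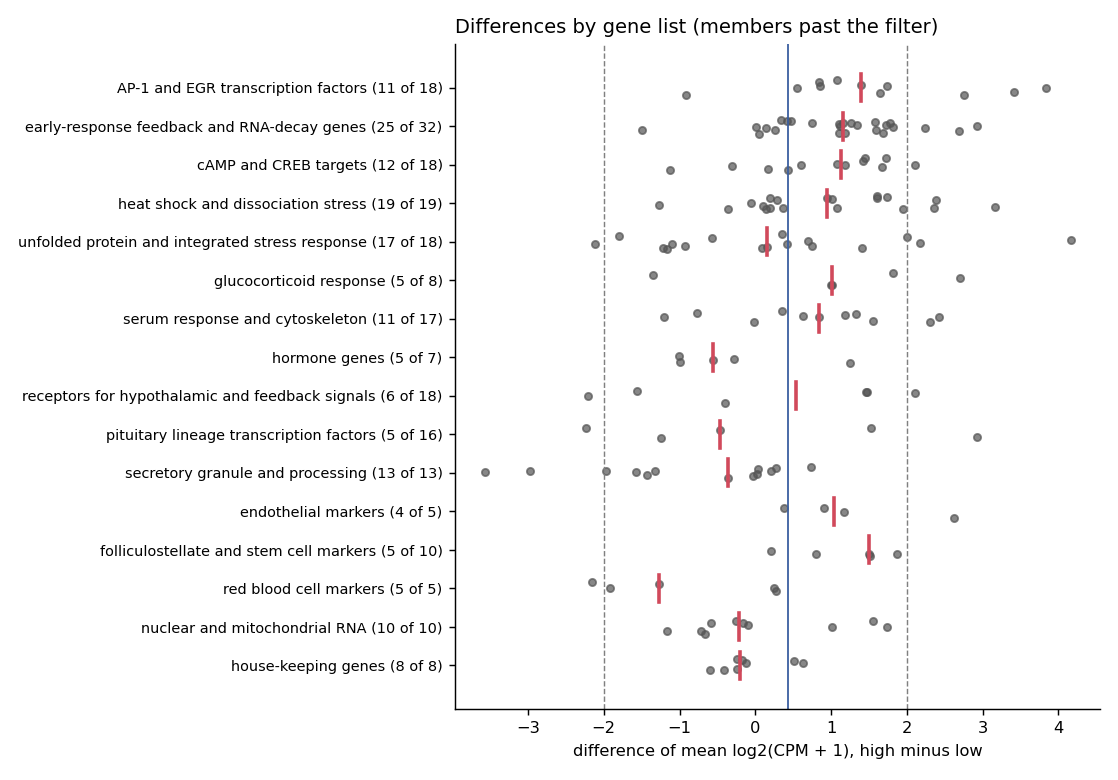
Difference of mean log2(CPM + 1), high minus low, for the members of 16 gene lists that passed the filter (points; numbers passed of numbers listed in parentheses), with list medians in red, the median of all 7725 genes (0.43) as a solid line and 4-fold as dashed lines. The 3 early-response lists have medians of 1.39, 1.15 and 1.13, above the solid line, and the granule list lies below it at -0.37. Other lists lie above the line too, among them the folliculostellate (1.51), endothelial (1.04) and glucocorticoid (1.01) lists. The cell cycle list, with 3 of 9 genes past the filter and a median of 2.70, is not drawn.

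Over all genes, most of the largest differences were in genes outside the listed programmes, with *Trib3*, *Myc* and *Gal* as exceptions. The 15 largest in the high direction ran from 3.84 to 4.46 and included *Psmd4*, a ubiquitin receptor of the proteasome (4.46), *Mdm4*, a p53 inhibitor (4.44), *Smarcb1*, a chromatin remodelling subunit (4.36), *G3bp2*, a stress granule protein (4.33), *Azin1*, an inhibitor of antizyme (4.31), *Slc3a2*, an amino acid transporter chain (4.24), *Trib3* and *Myc*. *G3bp2* was at 1.45 to 177 CPM in the high SCs, 9.18 to 139 in the middle SCs and 0.156 to 5.34 in the low SCs. Only the high wells H3 (1.95) and H7 (1.45) overlapped the low SCs for this gene, and no middle SC did. *Psmd4* had the same order, with medians of 389.9, 209.6 and 5.20 CPM in high, middle and low SCs, although low well C8 had 254 CPM. The 15 largest in the low direction ran from -3.48 to -5.41, led by *Prmt7*, an arginine methyltransferase (-5.41), and *Cpq*, a secreted carboxypeptidase (-4.17). *Prmt7* was at 26.7 to 637 CPM in the low SCs (median 266) and at 0 to 294 CPM in the high SCs (median 2.90), where E1 (294) and C1 (29.8) alone exceeded the lowest low SC.

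The sides failed to overlap for 2 of the 7725 genes (0.0259%), both higher on the high side. *Chd2*, a chromatin remodeller, was at 0.188 to 109 CPM in the high SCs (median 21.2) and at 0 in all 6 low SCs, with 0 to 81.0 CPM in the middle SCs. Its lowest high value is a few reads at most. In low well C8, where 1 count is worth about 1 CPM, a level that low could go unseen. *Taok1*, a MAP kinase kinase kinase, was at 0.330 to 88.0 CPM against 0 to 0.105 CPM, and in 6 of the 11 high SCs it was under 1 CPM. At the depths of these SCs, 0.330 and 0.105 CPM are a few reads at most, so the gap rests on very few reads. *Chd2* and *Taok1* overlap other annotated genes, and reads of the other strand cannot be told apart here.

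Over the 25 deep SCs, which share a chip and differ in depth and hormone, *Myc* had the highest rank correlation with the summed level of the 3 IEGs among 8044 genes (Spearman rho 0.62), followed by *Chd2* (0.60), *Synpo* (0.58), *Magi1* and *Dazap2* (both 0.57). The lowest was *Cpq* at -0.64, and the median over all genes was -0.01. The rest of the first 10 were *Gm43571*, *Smarcb1*, *Wdfy1*, *Nrp2* and *Tanc1*, and of these 10 genes *Chd2*, *Synpo*, *Gm43571*, *Nrp2* and *Tanc1* were at 0 in all 6 low SCs. These values describe the same SCs that gave the differences above.

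Shallower SCs that took no part in the split gave a further set of values. Of 15 SCs with at least 200000 gene counts but under the limit for a deep SC, 5 had an IEG sum of 100 CPM or more and 2 under 20 CPM. Spike-in RNA took 45.3% of counts in C11, 40.7% in H5 and 38.6% in C10, all on the high side. The high wells D2 and E9 had 7.73% and 0.159%, and the low wells C9 and C7 had 7.41% and 5.89%. The part of this gap in the values below was not tested. In these 7 SCs, 531 of the 629 genes that were higher in the deep high SCs (84.4%) were above 0, against 73.2% of all 7725 genes, with medians of 1.91 and 1.20. Of the 257 genes lower in the deep high SCs 65.4% were above 0 as well, with a median of 0.85, so only the first set kept its direction for most genes, and both lay on a general shift. The early-response genes were above 0 in 36 of 48 cases (75.0%) with a median of 1.47, near the 73.2% and 1.20 of all genes. *Klf10* (4.06), *Junb* (3.75), *Ier2* (2.47) and *Myc* (1.55) were higher on the high side of these SCs too, *Cebpb* was not (-0.05), and *Dusp1* (5.09) was. *Gal* (2.53) and *Pou1f1* (3.57) were higher there, opposite to the deep SCs. Of the 5 high SCs, *Egr1* led 1, D2, with 1475 CPM of *Egr1* and 5.70 CPM of *Fos*. D2 was led by *Prl*, so *Egr1* without *Fos* was also met outside the *Pomc*-led SCs. Wells C10 and C11 had near-identical values, and without C11 the share of the 629 genes above 0 was 85.2%.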

How the data were processed

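Single cells of cultured mouse pituitary were profiled by SMART-Seq v4 RNA sequencing, and all 56 libraries entered through 1 table. The deposited values are estimated counts per gene: the authors' table held 47069 genes and 92 ERCC spike-ins, and 33.5% of its values above 0 were not whole, so reads were shared between features. The submitters' processing notes name STAR 2.5.1b, featureCounts 1.5.0-p1 and mm10. The annotation release and the strand setting are not given in the sources used here. Symbols of 46488 genes and coordinates were taken from GENCODE M21 (GRCm38).

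Spike-ins were removed and CPM computed over gene rows. Sides were compared by the difference of mean log2(CPM + 1) over genes with a mean of 10 CPM or more in the 17 compared SCs, and a difference of 2 was counted as 4-fold. Each side was 1 sample, so no p-value was computed. Shares of SCs carry Clopper-Pearson 95% intervals, which cover counting error only. Counts of each SC were also thinned to 1000000. Named genes were the 15 largest differences in each direction, genes whose sides did not overlap, the 10 highest Spearman rho and members of the listed programmes. The members, gene lists and comparisons were chosen with earlier results of these data known. Alternatives were other pseudocounts, filters, scalings, limits, depths, plate columns and sets of wells, with each SC left out in turn. The scripts were tested on simulated data. In that simulation the changed genes differed by more than 4-fold and SCs varied less than here. It therefore gives no share of calls that come from the spread between SCs. Python 3.11.15, numpy 2.4.6, scipy 1.17.1, pandas 2.3.3 and matplotlib 3.10.9 were used. Some results are not reported here.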

Additional observations from a re-analysis of the deposited data

How the results depend on the processing

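Of 354 values recomputed under 35 settings, 322 stayed within the spread between SCs, the interval of a share or 1.5 times the count. The spreads and intervals were so wide that every hormone difference and *Prl*-led share stayed, so this total says little about the gene counts. The counts of higher, lower and early-response genes moved under 8, 15 and 8 of the settings. The reported counts were 629 genes higher, 257 lower and 7 early-response genes higher by 4-fold or more. With a pseudocount of 0.1 they were 1366, 581 and 16, and with 10 they were 76, 22 and 0. Settings that changed the filter, the CPM totals or the SCs also changed how many genes were counted. With a filter at 50 CPM 334 of 2946 genes were higher (11.3%) and 139 lower (4.72%). These shares are larger than the reported 8.14% and 3.33%. With hormone genes left out of the totals 410 of 8663 genes were lower (4.73%). By the difference of medians 853 were higher (11.0%), 569 lower (7.37%) and 12 early-response genes higher (25%). With SCs of 500000 or more counts 101 were lower. With 1 limit at 50 CPM the counts were 136, 155 and 2, and with *Fos* alone as the rule 200 were higher and 453 lower. In plate columns 4 to 6 and 10 to 12 (4 against 2 SCs) they were 1942, 1661 and 26, and the early-response median was 2.35. In columns 1 to 3 and 7 to 9 (7 against 4 SCs) that median was 0.65, beside 0.66 for all genes. Without wells F11, H4, H7 and H9 1436 were higher (19.2%) and 13 early-response genes were higher (27.7%). Among *Prl*-led SCs 390 were lower (6.00%). Of the settings chosen after seeing the data, leaving out A1 and C2 gave 934 lower (11.7% of 7955 genes). Leaving out H3, H7 and A1 gave 883 higher, 387 lower and 16 early-response genes higher. Centring on the median of all genes gave 295 higher and 484 lower. Leaving out 1 SC at a time gave 521 to 897 higher, 226 to 472 lower and 6 to 15 early-response genes higher, with an early-response median of 0.95 to 1.66. The cause of these shifts was not tested. The *Prl*-led share ran from 60% to 70% on the high side and 60% to 80% on the low side with 1 SC left out. Hormone differences moved by less than the spread between SCs but changed sign, from -2.11 to 1.98 for *Prl* and from -2.62 to 3.86 for *Pomc*. No paired analysis was possible because the labels give no replicate number shared by the sides. In the shallowest compared SC, with 1070910 counts, 1 count is worth about 1 CPM, so levels under that were not detectable there.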
